A study of Mus musculus with 2 samples.

Results

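The 300 strongest stitched clusters of distal accessible sites in the mouse urinary bladder were examined. They are regions in which several DNase-hypersensitive peaks away from protein-coding starts lie close together and sum to the greatest height. Members were chosen by the authors' peak heights in both animals: autosomal replicate 1 peaks that overlapped a replicate 2 peak and lay more than 2 kb from any protein-coding transcript start were joined where 12500 bp or less apart. Clusters with 3 or more peaks were ranked by the summed height of these peaks and of the overlapping replicate 2 peaks, and the first 300 of 5797 were kept. The whole set held 30776 clusters, of which 24979 had 1 or 2 peaks. Because heights selected the members, every value made from heights below is a description.

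DNase-seq marks DNA that is open to deoxyribonuclease I. The tissue came from 2 female B6CASTF1/J mice aged 36 days, animals 5 and 6, here replicates 1 and 2. Such mice are F1 offspring of the C57BL/6J and CAST/EiJ strains, so their reads carry 2 parental genomes while positions are those of mm10. The samples used here form 1 group for which the labels name no treatment, so no comparison of groups could be tested and the spread between them is the only error. Whole bladder holds urothelium, smooth muscle, fibroblasts, vessels, nerves and leukocytes, and in such bulk tissue a change in the number of cells of a type cannot be told apart from a change within each cell.

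Enhancers are stretches of DNA, often far from a gene, at which transcription factors gather and act on promoters over a distance. Where many lie side by side with strong signal they are often called stretch or super-enhancers, and such regions are known for lying near genes of cell identity and near highly active genes. Open chromatin also marks promoters, insulators bound by CTCF, and the short genes for transfer RNAs. RNA polymerase III transcribes tRNA genes from internal promoter elements, the A box and the B box, which the factor TFIIIC binds. The rule removed promoters of protein-coding transcripts only, so starts of other genes remained.

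Sequences of tallest peaks are shown first because the results turn on what these peaks hold. They were read from the RefSeq copy of GRCm38.p6, the build that mm10 stands for, on the plus strand. In the first set capitals mark bases inside a footprint, a short stretch protected from cutting, that was called in both animals. The set holds the tallest peaks of the 3 clusters with the highest scores, of the highest cluster next to a circadian clock gene, and of the highest clusters next to a smooth muscle gene and a fibroblast gene.
Wnt7b cluster, chr15:85634661-85634840: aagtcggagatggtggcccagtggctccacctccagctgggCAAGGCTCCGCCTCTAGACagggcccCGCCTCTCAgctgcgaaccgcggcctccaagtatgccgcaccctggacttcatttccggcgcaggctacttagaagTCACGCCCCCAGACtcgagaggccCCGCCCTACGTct
Sfi1 cluster, chr11:3123861-3124000: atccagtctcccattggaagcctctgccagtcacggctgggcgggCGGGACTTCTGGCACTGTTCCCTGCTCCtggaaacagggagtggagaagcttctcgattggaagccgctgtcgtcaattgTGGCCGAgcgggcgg
Spag9 cluster, chr11:94133361-94133540: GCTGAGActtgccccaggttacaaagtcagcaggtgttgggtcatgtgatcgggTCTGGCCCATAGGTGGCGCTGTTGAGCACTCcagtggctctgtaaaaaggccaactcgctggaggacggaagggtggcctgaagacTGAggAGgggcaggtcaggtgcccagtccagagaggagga
Nr1d1 cluster, chr11:98783401-98783640: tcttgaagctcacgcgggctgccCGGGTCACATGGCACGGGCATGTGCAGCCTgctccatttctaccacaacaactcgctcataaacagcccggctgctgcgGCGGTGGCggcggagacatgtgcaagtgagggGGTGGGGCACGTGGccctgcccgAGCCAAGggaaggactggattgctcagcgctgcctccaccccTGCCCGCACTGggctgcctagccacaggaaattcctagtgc
Ckb cluster, chr12:111668481-111668640: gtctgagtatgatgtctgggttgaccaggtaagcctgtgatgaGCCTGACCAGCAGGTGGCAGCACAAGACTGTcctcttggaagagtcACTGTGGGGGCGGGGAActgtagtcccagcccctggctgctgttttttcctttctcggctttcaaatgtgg
Fbln1 cluster, chr15:85231921-85232100: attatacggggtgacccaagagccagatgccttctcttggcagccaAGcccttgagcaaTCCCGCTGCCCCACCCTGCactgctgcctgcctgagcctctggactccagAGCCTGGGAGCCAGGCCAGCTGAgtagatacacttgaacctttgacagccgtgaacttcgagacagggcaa
The midpoint of the Fbln1 peak lies in an intron of Fbln1, while the other 5 lie outside any annotated gene. The Ckb peak holds the CTCF core motif inside its capitals. In the Nr1d1 peak a shared footprint spans a CACGTG E-box, the hexamer that the clock factors CLOCK and BMAL1 are known to bind among other factors.

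The second set shows the tallest tRNA gene peak of the 3 highest-scoring clusters in which such peaks held over 50% of the replicate 1 height. Capitals mark the tRNA gene as RefSeq annotates it.
Abt1 cluster, n-TYgta7, chr13:23432981-23433160: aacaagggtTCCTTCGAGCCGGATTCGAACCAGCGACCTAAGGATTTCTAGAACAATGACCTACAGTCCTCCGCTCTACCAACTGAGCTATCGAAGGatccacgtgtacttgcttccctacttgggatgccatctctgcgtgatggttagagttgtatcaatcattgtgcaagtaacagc
Aurkb cluster, n-TWcca7, chr11:69041701-69041920: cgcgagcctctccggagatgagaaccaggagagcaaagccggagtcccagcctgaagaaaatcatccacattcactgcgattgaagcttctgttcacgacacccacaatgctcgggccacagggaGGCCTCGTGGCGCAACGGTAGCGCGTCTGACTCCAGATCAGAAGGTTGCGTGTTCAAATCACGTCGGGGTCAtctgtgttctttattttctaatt
Hfe2 cluster, n-THgtg8, chr3:96500341-96500520: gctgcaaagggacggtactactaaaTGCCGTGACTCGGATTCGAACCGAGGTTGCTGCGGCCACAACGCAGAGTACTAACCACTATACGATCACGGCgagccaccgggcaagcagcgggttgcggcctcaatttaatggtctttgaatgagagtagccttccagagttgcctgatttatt
In the Abt1 and Hfe2 peaks the B box motif GTTCGANTC was found on the minus strand, and the Aurkb peak did not hold these letters.

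The members held 2456 replicate 1 peaks and 2412 replicate 2 peaks, 4.43% and 4.39% of the 55473 and 54997 shared distal peaks. They carried 9.77% and 9.28% of the summed distal height (9.53% ± 0.35, SD, n = 2). Scores ran from 28.7 to 124 with a median of 37.0, against a median of 8.32 over the other 5497 clusters with 3 or more peaks. Heights are in the authors' signal units, whose scaling is not given in the sources used here, so the depth behind them is unknown. The step between neighbouring height values is 0.0079 for replicate 1 and 0.00849 for replicate 2. The lowest summed heights of a member, 15.4 and 10.4, correspond to 1951 and 1227 steps. Just inside the limit stood the clusters near Ak4, Lsm3 and Cdk18, with scores of 28.88, 28.81 and 28.74. Just outside stood those near Scaf8 and Hes1, with 28.71 and 28.69, so no gap separated members from the rest. In the deposited lists 67 replicate 1 member peaks (2.73%) and 148 of replicate 2 (6.14%) touched another member peak of the same animal, and both heights were then summed.

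**Figure D1:**
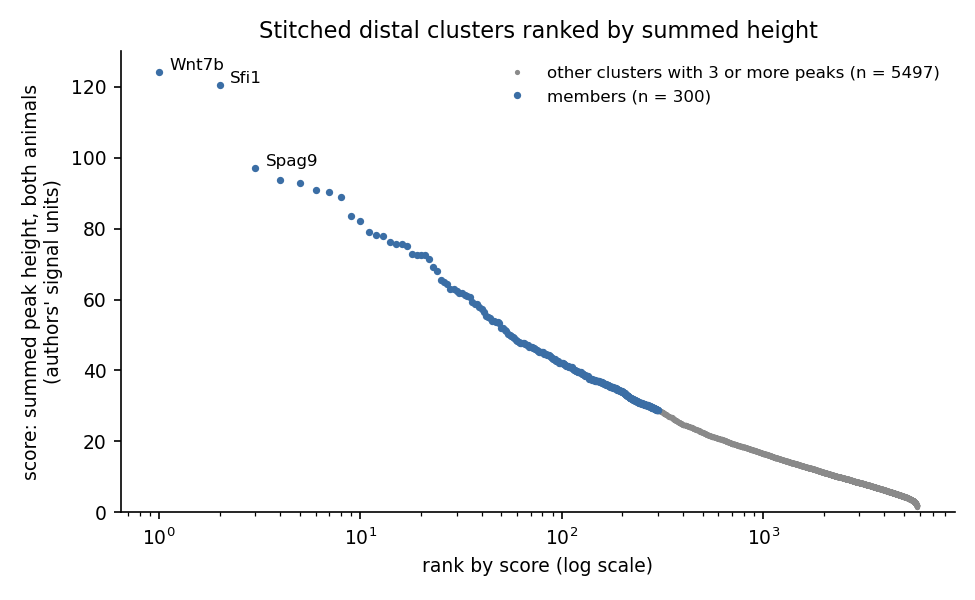
Score of each of the 5797 clusters with 3 or more peaks (summed peak height of both animals, the authors' signal units) against its rank on a log scale. The 300 members (blue) run from 124 to 28.7, and the curve passes the limit without a break.

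Members spanned 0.94 to 100 kb, with a median of 24.01 kb, and together covered 7.82 Mb. They held 3 to 29 replicate 1 peaks with a median of 7, while other clusters with 3 or more peaks had a median of 3. The Gse1 cluster was the longest of the members at 100 kb, followed by those near Irs2 (94.5 kb), Prkag2 (80.7 kb), Spag9 (78.0 kb) and Ryk (75.005 kb). The Bcl9l cluster, next to a coactivator of beta-catenin, held the most peaks, 29 in replicate 1 and 27 in replicate 2. It was followed by the clusters near Wnt7b with 24 and 22, Spag9 with 24 and 24, 1700001O22Rik with 23 and 22, and Sfi1 with 22 and 22. At the other end, the Pcmtd1 cluster put 3 peaks into 0.94 kb. A member was thus not one kind of structure. The tallest peak held 32.2% of the replicate 1 height in the median, from 10.97% to 93.0%, and over 50% in 46 of 300 members. Among the other 5497 clusters with 3 or more peaks the median was 43.6%, from 12.6% to 93.6%, and 1657 passed 50%. The wide range was therefore not particular to members.

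The Wnt7b cluster, named for the nearest start at 52.3 kb from its tallest peak, led the list. Wnt7b encodes a secreted Wnt ligand. The cluster covered chr15:85598961-85672067, 73.1 kb without a protein-coding start, and its peaks summed to 74.7 in replicate 1 and 49.2 in replicate 2. Its tallest peak, shown above, stood at 18.1 and 9.27. The next highest replicate 1 peak stood at 5.68, and the next highest replicate 2 value was 4.18 at a different peak, so 1 peak rose above all others in both animals.

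The Sfi1 cluster had rank 2 at chr11:3123241-3181580, with 66.7 and 53.7 over 22 peaks in each animal. In 16 of its 22 replicate 1 peaks over 50% of the 31-base words occur more than once in the reference genome, and these 16 held 66.3% of its replicate 1 height. Reads from such words cannot be placed on 1 copy by sequence alone. The part of this in the rank was not tested. The Spag9 cluster, near the gene for a scaffold protein of the JNK pathway, had rank 3 at chr11:94128061-94206074 with 57.3 and 39.9. Its tallest peak stood at only 6.81 and 3.96, 11.9% of the replicate 1 sum, so its rank came from many peaks of like height.

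The other clusters among the first 10 lay near Kdm6b, Limd1, 1700001O22Rik, Krt78, Igf2bp3, Bcl9l and Chd2. Kdm6b encodes a histone H3 lysine 27 demethylase, Krt78 a type II keratin and Chd2 a chromatin remodeller. Their replicate 1 sums ran from 43.3 to 54.6 and their replicate 2 sums from 30.8 to 49.7. Ranks 11 to 25 included the clusters near Irf2bpl, Nanos3, Abt1, Rhof, Nr1d1, Spen, Frmd8, Gse1, Rxra, Mcts2, Ptma, Socs3, Id3 and Pim3. Among these genes, Rxra encodes the shared partner of many nuclear receptors, Socs3 an inhibitor of cytokine signalling, Id3 an inhibitor of helix-loop-helix factors and Pim3 a serine/threonine kinase. Replicate 1 sums at these ranks ran from 39.7 to 49.4. The nearest gene is a label of position and was not shown to be the gene acted on.

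**Figure D2:**
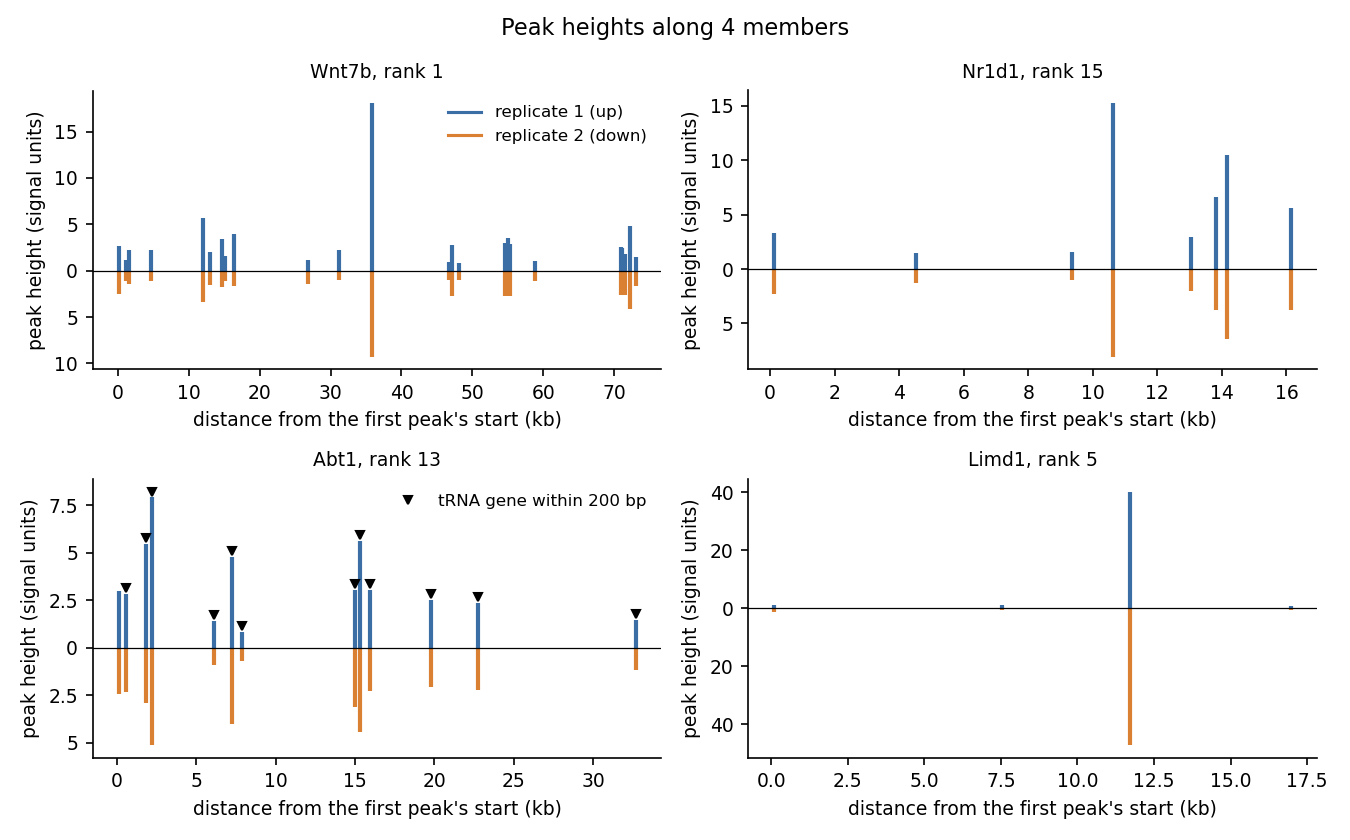
Height of each replicate 1 peak (up, blue) and of the highest replicate 2 peak that overlaps it (down, orange), in signal units, by distance in kb from the first peak's start, for 4 members. Wnt7b and Nr1d1 have many peaks under 1 or 2 tall ones, 12 of the 13 Abt1 peaks lie at tRNA genes (triangles), and 1 peak of 40.2 and 47.2 stands over the 3 others of the Limd1 cluster.

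Transfer RNA genes were common among members. In replicate 1, 101 member peaks lay within 200 bp of a RefSeq tRNA gene, 4.11% of member peaks, against 0.308% of all shared distal peaks. In replicate 2 the count was also 101, 4.19% against 0.311%. In the other clusters with 3 or more peaks the shares were 0.187% and 0.191%. Shared peaks are the same loci in both animals, so their closeness follows from the rule and is no measure of error. Members held 59.1% of all 171 such distal peaks in each animal, and 98 of the 161 autosomal tRNA genes with a shared distal peak. Among member peaks in the highest quartile of heights the shares were 5.74% and 5.91%, against 0.415% and 0.401% in the other clusters, so the difference was also present among tall peaks.

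These peaks fell into 27 members, 9% of 300, against 0.828% of all clusters with 3 or more peaks, and 15 of the 27 held 3 or more. Chromosome 11 had 7 of these members and chromosome 13 had 4, with 19 and 30 of the tRNA genes. tRNA gene peaks held over 50% of the replicate 1 height in 22 members. The Abt1 cluster, at rank 13, was the highest: 12 of its 13 peaks were at tRNA genes, they held 93.2% of its height, and its sums were 44.3 and 33.8. Its peaks at tRNA genes stood between 0.845 and 7.91 in replicate 1 and between 0.713 and 5.14 in replicate 2. The cluster lies near the Hist1h4h cluster on chromosome 13, where 7 of 8 peaks were at tRNA genes, with sums of 23.3 and 18.9.

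The Aurkb and Borcs6 clusters on chromosome 11 had 6 of 7 and 3 of 5 peaks at tRNA genes. The Hfe2 cluster had 7 of 11 and the Fcgr4 cluster 5 of 6, which held 97.2% of the height. The Wnt11 cluster, a member by the nearest start of a Wnt gene, was 1.1 kb long and had 2 of its 3 peaks at tRNA genes. Members with a tRNA gene peak were shorter than the other 273, with a median span of 11.5 against 25.6 kb. The B box motif, added after the values were seen, lay within 75 bp of the midpoint in 26 member peaks of replicate 1 and 23 of replicate 2, 1.06% and 0.954%, against 0.123% and 0.109% of all shared distal peaks. Of the 171 distal tRNA gene peaks only 42 in replicate 1 (24.6%) and 35 in replicate 2 (20.5%) held it, so the search missed most of them. tRNA genes of 1 family are near copies of each other, and in the tallest peaks of these 27 members up to 36% of 31-base words were repeated, with a median of 13.7%, so counts of single tRNA genes are uncertain.

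Starts of genes that do not code for protein were the second feature. Of member peaks, 11.5% in replicate 1 and 11.1% in replicate 2 lay within 1 kb of such a start, against 5.41% and 5.34% of all shared distal peaks. In the other clusters with 3 or more peaks the shares were 5.80% and 5.75%. The tallest peak lay at such a start in 53 members, 17.7%, against 6.31% of the other clusters, and 31 of the 53 were at long intergenic noncoding RNAs. The tallest peak of the Tlcd2 cluster, 17.3 and 8.15 high, was 2 bp from a start of Mir22hg, the host gene of a microRNA. Lncpint, Snhg20 and Dleu2 were the noncoding genes at the tallest peaks of the Mkln1, Sec14l1 and Kcnrg clusters. The label distal thus holds against protein-coding transcripts and not against every transcript.

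Only protein-coding genes counted as genes in the next shares, so a peak in a tRNA gene or other noncoding gene could count as intergenic. Member peaks were more often intergenic in this sense, with 60.5% and 60.4% against 51.1% and 51.0% of peaks in the other clusters. They were less often intronic, with 35.4% in each animal against 44.5%. Exonic shares were alike, 4.11% and 4.23% against 4.42% and 4.52%. A protein-coding start lay inside the span of 88 members, 29.3%, against 12.1% of all clusters with 3 or more peaks, and members are longer. The tallest peak was 17.5 kb from the nearest start in the median, against 26.9 kb in the other clusters with 3 or more peaks. It was over 50 kb away in 53 of 300 members, against 1700 of those 5497 clusters. Members were unevenly spread: chromosome 11 held 45 of its 464 clusters as members (9.70%) and chromosome 18 held 2 of 196 (1.02%).

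The tissue label was checked against marker genes. A shared peak lay within 1 kb of a start for 28 of 30 urothelium genes, 27 of 30 smooth muscle genes and 26 of 30 fibroblast and matrix genes, against 65.3% of all protein-coding genes. Off-tissue lists ran from 2 of 12 liver and 3 of 10 erythroid genes to 8 of 12 neuron genes, while endothelium had 12 of 18 and leukocytes 7 of 18. Signalling lists such as Wnt, with 25 of 26, were as high as the bladder lists, so the check separates the tissue only in part. Yet these markers were rare as nearest genes of members. Urothelium genes were nearest to 0 members, against 0.397% of all clusters with 3 or more peaks. Smooth muscle genes were nearest to 2, Ckb and Tns1, against 0.362%, and fibroblast and matrix genes to 1, Fbln1, against 0.604%. The 3 lists together named 3 members, 1%, against 1.36%. These shares are near the background and are no result about the members.

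Ckb encodes the brain-type creatine kinase, which smooth muscle also uses, and its cluster at rank 161 stood at 20.3 in replicate 1 and 16.0 in replicate 2. Tns1 encodes tensin 1, a link between integrins and actin, and its cluster at rank 234 stood at 17.3 and 14.1. Fbln1 encodes the matrix protein fibulin 1, and its cluster at rank 50 stood at 32.4 and 19.8. Within 50 kb of a member's span lay starts of the simple keratins Krt8 and Krt18, of the uroplakin gene Upk2, of Col1a1 and of Csrp1, so some marker genes had a member nearby without being nearest to its tallest peak. Urothelium genes were that near to 2 members, 0.667% against 0.431% of all clusters with 3 or more peaks. Smooth muscle genes were near 3, 1% against 0.5%, and fibroblast and matrix genes near 2, 0.667% against 0.518%. Off-tissue lists had hits too, Rbfox3 of neurons and Tnnt2 of skeletal and heart muscle, with 1 member each. Members are longer, which widens this window.

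No member had a nearest gene on the lists for endothelium (0.121% of all clusters with 3 or more peaks), mesothelium (0.0173%), glia and nerve (0.0863%), leukocytes (0.0863%), neurons (0.0863%) or erythroid cells (0.0173%). The same held for the Hox list (0.0863%) and for FGF and EGF (0.431%), and on the liver list and the skeletal and heart muscle list the background was 0% as well. With such low backgrounds a count of 0 in 300 says little.

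Immediate early genes, which cells switch on within minutes of a stimulus, were the list with the most members. Although nearness to genes was not used by the rule, the list was chosen with earlier results known. Its genes were nearest to 9 members, 3%, against 0.673% of all clusters with 3 or more peaks. Those 9 lay near 7 genes, since Btg2 and Fos each had 2. The Junb cluster at rank 28 had 12 peaks in each animal and stood at 38.5 and 24.5. Junb encodes a subunit of the AP-1 factor, and 3 protein-coding starts lay inside the span. The Btg2 clusters, near an antiproliferative gene, stood at 33.1 and 21.7 at rank 44 and at 19.4 and 11.7 at rank 239.

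The Nr4a1 cluster, near an orphan nuclear receptor gene, stood at 25.1 and 16.9, and the Fosb cluster at 25.7 and 14.1. The Maff cluster stood at 18.6 and 14.7 and the Ier5 cluster at 18.1 and 10.999. The Fos clusters, 12.2 and 18.5 kb from a Fos start by their tallest peaks, stood at 18.4 and 13.99 and at 17.0 and 16.2.

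Of the signalling and developmental lists, urogenital developmental factors were nearest to 3 members, Foxc2, Meis1 and Nfia, 1% against 1.12%. TGF-beta and BMP genes were nearest to 2, Id3 and Id2, against 0.656%, and Wnt genes to 2, Wnt7b and Wnt11, against 0.5%. Of the Hippo list only Vgll4, a competitor of YAP for TEAD factors, was a nearest gene, against 0.276%. Housekeeping genes, Actb among them, were nearest to 2, against 0.104%. The Id3 cluster at rank 24 stood at 41.8 and 26.2, the Id2 cluster at 20.8 and 15.9, and the Vgll4 cluster at 27.3 and 20.6. These counts are small and none was tested against its background.

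A circadian clock list and a glucocorticoid response list were drawn up after the members were seen, so their counts have no independent weight. Clock genes were nearest to 5 members, 1.67%, against 0.345% of all clusters with 3 or more peaks. The Nr1d1 cluster at rank 15, near the gene for the repressor REV-ERB alpha, stood at 47.2 and 28.6, and its 3 tallest peaks stood at 15.2, 10.5 and 6.63 in replicate 1 and at 8.04, 6.38 and 3.77 in replicate 2. The Cry2 cluster stood at 26.6 and 16.2, the Per2 cluster at 24.6 and 16.3, the Tef cluster at 23.8 and 15.7 and the Hlf cluster at 17.6 and 13.2. Cry2 and Per2 encode repressors of the clock, and Tef and Hlf encode PAR bZIP factors under clock control.

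Glucocorticoid response genes were nearest to 7 members, 2.33%, against 0.431%. The Ddit4 cluster stood at 36.6 and 22.6, the Zbtb16 cluster at 27.2 and 16.0 and the Fkbp5 cluster at 26.8 and 15.5. Fkbp5 encodes a cochaperone of the glucocorticoid receptor. The clusters near Cebpb, of which there were 2, Klf9 and Mt1 stood between 19.9 and 28.6 in replicate 1 and between 12.9 and 20.8 in replicate 2.

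Members were higher in replicate 1 in 298 of 300 cases, as were 5267 of the other 5497 clusters with 3 or more peaks. The median log2 ratio of replicate 2 to replicate 1 was -0.53 over members and -0.43 over the other clusters, a difference of -0.11. Since the scaling of each animal is not known, only the order among clusters can be read. At the low end stood the clusters near A830005F24Rik with -1.02 (35.9 and 17.7), Elmsan1 with -0.98, Zfp958 with -0.97, Pak4 with -0.96 and Ccne1 with -0.94. At the high end stood those near Limd1 with 0.20 (43.3 and 49.7), Meis1 with 0.09 (15.4 and 16.5), a Fos cluster with -0.07 and Igf2bp3 with -0.12. Limd1 and Meis1 were the 2 members that were higher in replicate 2.

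Members with a tRNA gene peak had a median log2 ratio of -0.38, ranging from -0.66 to -0.17, against -0.55 in the other 273. Members whose nearest gene was on the immediate early list had a median of -0.61, and the 7 of the glucocorticoid response list had -0.69. The ranges overlap. In replicate 1 alone 285 members ranked in the first 300, in replicate 2 alone 281, and 266 did so in both. Over the 300 members Pearson's r of the log2 summed heights was 0.918 and Spearman's rho 0.842, with both heights having chosen the members.

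**Figure D3:**
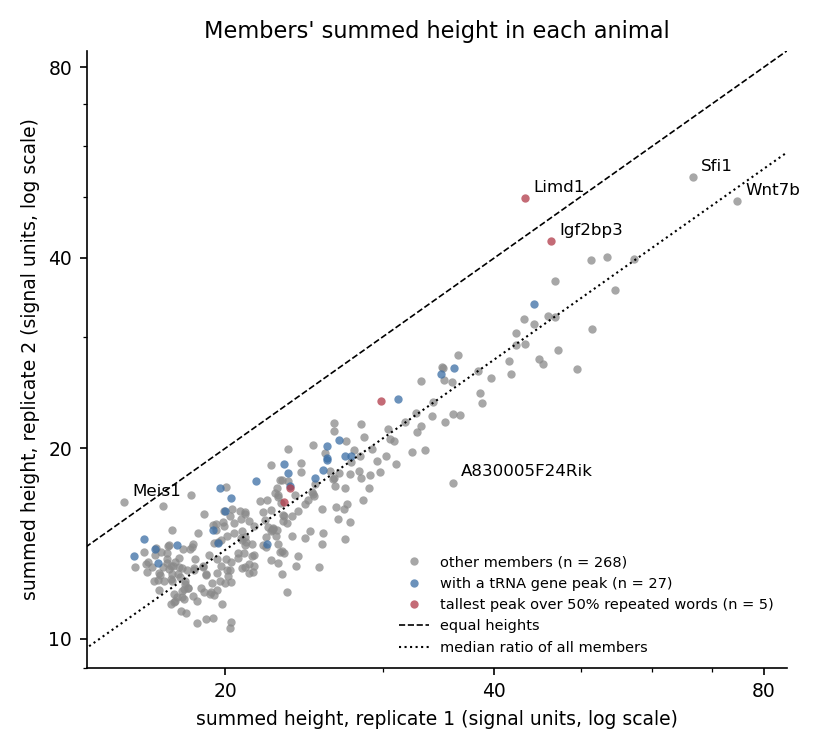
Summed height of each member in replicate 1 and replicate 2 (signal units, log scales), with lines for equal heights (dashed) and for the median ratio (dotted). Limd1 and Meis1 lie above the line of equal heights, and the 27 members with a tRNA gene peak (blue) lie mostly above the median ratio.

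Repeated sequence touched a few members strongly. In 5 members, 1.67%, over 50% of the 31-base words of the tallest peak were repeated, against 0.69% of all clusters with 3 or more peaks. In the Limd1 cluster the tallest peak stood at 40.2 and 47.2 and held 93.0% of the replicate 1 height. In the Igf2bp3 cluster it stood at 39.7 and 36.0 and held 85.8%. In the Gm15319, Gm31371 and Tex14 clusters it stood at 27.4 and 20.4, 21.6 and 12.9, and 8.83 and 5.92. Leaving out every peak of this kind, an alternative added after the data were seen, kept 294 of the 300 members by overlap.

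Footprints were frequent in members. At least 1 footprint of the same animal touched 93.9% of member peaks in replicate 1 and 90.1% in replicate 2 (92.0% ± 2.7, SD, n = 2), against 90.1% and 82.6% of all shared distal peaks. In the other clusters with 3 or more peaks the shares were 91.3% and 85.1% (88.2% ± 4.4, SD, n = 2). Members were higher in each animal, and the pooled difference was smaller than this SD. Both groups were measured in the same 2 animals, so the SD includes a difference between animals that they share. All 300 tallest peaks of members had a footprint, near the share in the other clusters with 3 or more peaks, 5441 of 5497 (98.98%). Within quartiles of height the order turned. The highest quartile has no upper limit, and there member peaks averaged 4.25 and 2.83 in height, other clusters with 3 or more peaks 2.85 and 1.99, and clusters with 1 or 2 peaks 2.89 and 2.05. In the highest quartile of heights 98.3% and 96.2% of member peaks had a footprint, against 99.5% and 98.7% in other clusters with 3 or more peaks and 99.8% and 99.4% in clusters with 1 or 2 peaks. In the third quartile the values were 90.8% and 84.3%, 96.99% and 93.0%, and 98.8% and 96.2%. Members had the lowest share of the 3 groups in each of the 4 quartiles in both animals, with only 68 and 31 member peaks in the lowest quartile. The number of footprints per peak differed from this share. In the highest quartile it was 3.58 and 3.66 in members, 3.31 and 3.29 in other clusters with 3 or more peaks and 3.26 and 3.13 in clusters with 1 or 2. Member peaks there were also wider. In each lower quartile members had the fewest footprints per peak.

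The clusters with the most footprints found in both animals were those near 1700001O22Rik (45), Wnt7b (39), Spag9 (37), Abt1 (35) and Sfi1 (33), against a median of 12 over members. Outside called peaks, 3.57% and 3.42% of the bases in member spans lay in regions with a false discovery rate of 0.001 or less for the local cut rate (3.50% ± 0.11, SD, n = 2). In the other clusters with 3 or more peaks it was 1.34% and 1.26% (1.30% ± 0.05). The difference was larger than the spread between animals, but these regions come from the same reads as the heights that chose the members. In the 2 shortest members, the 0.94 kb Pcmtd1 cluster and the 1.1 kb Wnt11 cluster, 100% of the bases between peaks were in such regions in both animals.

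Motifs were searched on both strands within 75 bp of each peak's midpoint. The CTCF core, which marks insulator and loop anchor sites, was found in 6.23% and 5.72% of member peaks, against 8.05% and 7.82% of all shared distal peaks. It is found above all in tall peaks, so shares were also taken by quartile of height, which narrows the difference in height without removing it. In the highest quartile of heights it was in 8.51% and 7.75% of member peaks, against 13.6% and 13.8% in other clusters with 3 or more peaks and 17.9% and 19.4% in clusters with 1 or 2 peaks. In the third quartile the shares were 3.07% and 2.15%, 5.99% and 5.35%, and 10.3% and 10.4%. The order of the 3 groups was the same in all 4 quartiles and both animals, with few member peaks in the lowest (68 and 31). As the peaks are shared loci, the animals are not independent here.

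The AP-1 site TGANTCA was in 9.77% and 9.33% of member peaks (9.55% ± 0.31, SD, n = 2), against 11.3% and 10.1% of all shared distal peaks. Over all members the AP-1 site was thus no more frequent than over distal peaks in general, and the 9 clusters next to immediate early genes were not examined separately. By height the order of the groups changed from quartile to quartile.

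**Figure D4:**
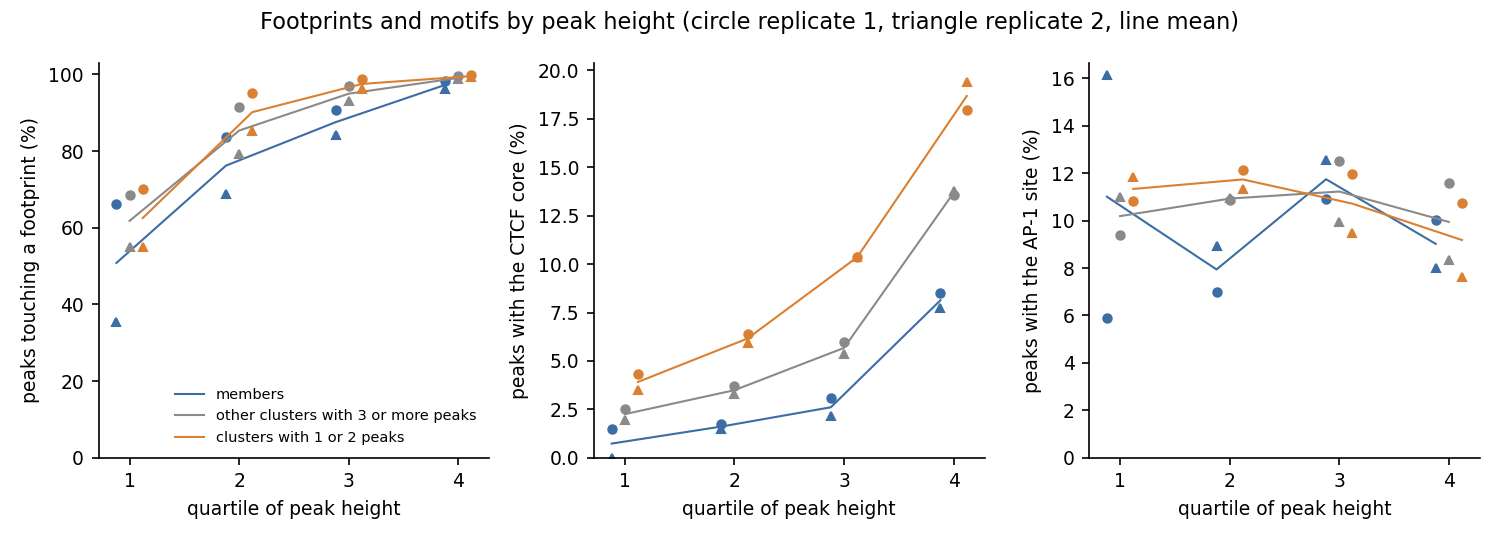
Share of peaks (%) with a footprint, the CTCF core and the AP-1 site by quartile of peak height (1 lowest, 4 highest) in members, other clusters with 3 or more peaks, and clusters with 1 or 2 peaks (circles replicate 1, triangles replicate 2, lines their mean). CTCF core shares in the highest quartile average 8.13% in members, 13.7% in other clusters and 18.7% in small clusters, whereas AP-1 shares have no fixed order.

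Other motifs are named where the share of member peaks was at most 0.8 times that of all shared distal peaks in both animals, or higher by at least the inverse of that ratio, with 15 or more matches. Of 27 motifs searched and 2 added later, those that met it follow. The cyclic AMP response element TGACGTCA, a site of CREB factors, was in 0.936% and 0.788% of member peaks, against 0.375% and 0.331%. The ETS site CCGGAAG was in 2.28% and 1.99%, against 1.47% and 1.36%. The KLF site GGGTGTGG was in 3.58% and 3.15%, against 2.38% and 2.27%, and the NF-kB motif in 4.72% and 4.39%, against 3.39% and 3.46%. The CACGTG E-box, added after the values were seen, missed this rule with 4.80% and 4.27% against 3.74% and 3.55%. It lay in 26 of the 300 tallest peaks, 8.67%, against 3.95% in other clusters with 3 or more peaks. The same count for the AP-1 site was 25, 8.33%, against 11.6%.

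Lower in members were the GATA site AGATAA, with 3.26% and 3.19% against 5.57% and 5.49%, and the site TTGGCA of nuclear factor I, with 13.2% and 12.6% against 18% and 17.5%. The TCF/LEF site TCAAAG of Wnt signalling was in 6.19% and 7.01%, against 8.63% and 8.92%. The C/EBP site TTGCNNAA was in 8.39% and 8.13%, against 10.7% and 10.3%. The homeodomain site TAATTA was in 0.855% and 1.20%, against 1.45% and 1.53%, and the interferon response motif (ISRE) in 0.977% and 0.954%, against 1.43% and 1.43%.

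Base composition moved with these shares. Member peaks had a GC content of 56.8% and 56.5%, against 53.4% and 53.1% in other clusters with 3 or more peaks. Their ratio of observed to expected CpG was 0.382 and 0.376, against 0.288 and 0.286. The motifs with higher shares are rich in G and C or hold CpG, and most of those with lower shares are rich in A and T, while the CTCF core is itself rich in G and C. The part of base composition in these shares was not tested. In the highest quartile of heights the ratio of member share to overall share lay closer to 1 for ETS, at 1.34 and 1.19, and for GATA, at 0.732 and 0.805. NF-kB, the nuclear factor I site, C/EBP, TCF/LEF and the homeodomain site also missed the rule there in at least 1 animal, as ETS and GATA did. CRE, KLF, ISRE, the B box and the CTCF core still met its ratio, the last at 0.567 and 0.496. Matches in that quartile are not given here, and over all member peaks CRE had only 23 and 19 and ISRE 24 and 23.

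**Figure D5:**
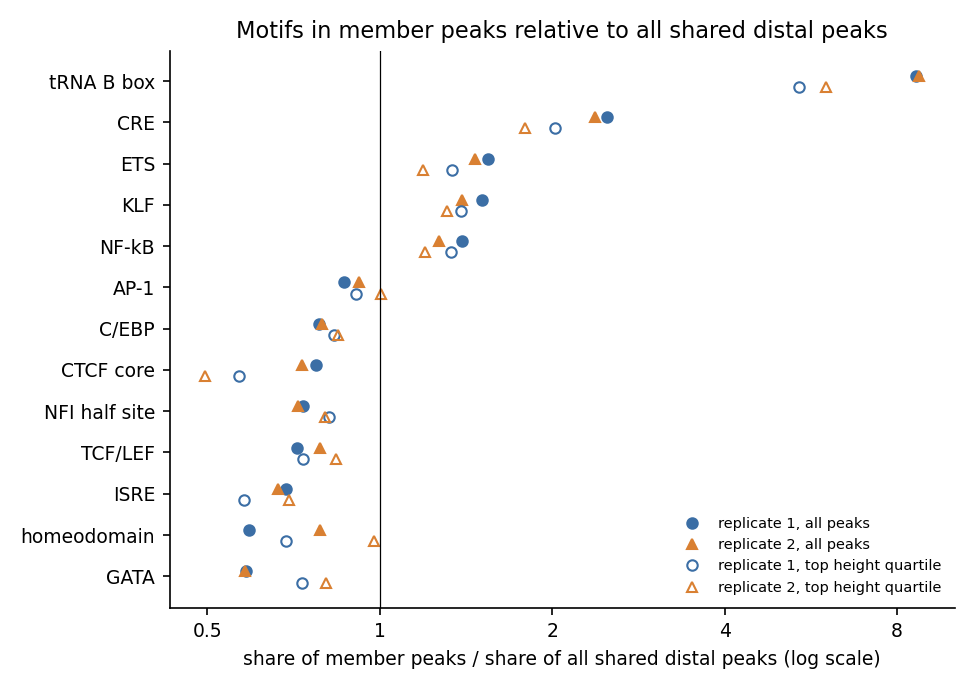
Share of member peaks with each motif divided by the share of all shared distal peaks (log scale), for all peaks (filled) and the highest quartile of heights (open), in replicate 1 (circles) and replicate 2 (triangles). Over all peaks the tRNA B box lies at 8.64 and 8.74 and CRE at 2.50 and 2.38, and the CTCF core lies lower among tall peaks than among all peaks.

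The tallest 500 replicate 1 distal peaks and the members overlapped in part: 201 of the 500 (40.2%) lay in members, and 164 of the 300 members (54.7%) held one.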

How the data were processed

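DNase-seq of urinary bladder was measured in 2 animals of 1 group. The deposited peak lists hold the authors' height per peak, a signal, and further deposited files hold false discovery rates of the local cut rate, used like adjusted p-values. The aligner, the peak caller, height scaling and library depth were not given in the sources used here. Positions are mm10. Footprints are the authors' calls at a threshold of 0.01, per the deposited files. For each animal the larger of 2 deposited peak lists was used.

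Protein-coding and noncoding starts came from GENCODE M21, tRNA genes and sequence from RefSeq GRCm38.p6. Peaks were shared where they overlapped by 1 bp or more. Motifs, base composition, repeated 31-base words and gene context were computed with Python 3.11.15, numpy 2.4.6, pandas 2.3.3 and numba 0.67.0, and the code was tested on simulated data. The rule for naming took the 25 highest scores, up to 4 members per gene list, the 5 at each end of the ratio between animals, the 5 with most footprints, most peaks or longest span, and 3 on either side of the limit. Other clusters, among them those with tRNA genes, noncoding starts or repeated words and further list members, were named after their values were seen. A few clusters that the rule names are not reported here. Members, lists and motifs were chosen with earlier results of these data known. With 1 group and 2 animals no test was made. Alternatives were other peak lists, distances, overlaps, member numbers, rankings and motif windows, and each animal left out of the ranking.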

Additional observations from a re-analysis of the deposited data

How the results depend on the processing

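The mean share of distal height in members, 9.53%, became 10.25% with the smaller peak lists, 7.296% and 14.14% with stitching at 6 and 25 kb, 9.156% away from starts of any gene type, 5.864% and 14.96% with 150 and 600 members, and 3.757% when ranked by height per kb. That ranking found only 15.3% of members again. Stitching at 6 and 25 kb found 66.3% and 69.3% again, and distance from starts of any gene type 69%. Peaks over 5 kb from starts found 76%, the smaller lists 77.7% and the 50% overlap of both peaks 81.3%. Leaving out replicate 1 or 2 from the ranking kept 93.7% and 95%. Members in both animals' own top lists numbered 126 of 150, 531 of 600, and 41 when ranked per kb. Each animal's own list was ranked by summed height, so the 41 sets unlike rankings against each other. It does not measure agreement between the animals. The footprint share was 95.02% with a 50% overlap of both peaks and 86.38% when ranked per kb. The AP-1 share was 8.645% with the smaller lists, 8.851% at 6 kb, 8.975% ranked per kb, 12.74% over whole peaks and 14.67% within 150 bp, and ran from 9.069% to 9.832% with 1 animal left out. Members nearest to a tissue list gene numbered 1 with the smaller lists, with the 50% overlap and among 150, and 8 among 600. Such genes were nearest to 1.36% of all clusters with 3 or more peaks. When any such gene within 50 kb counted there were 7 members, 2.33%, against 1.45% of these clusters. Member spans are longer, which widens that window. The low false discovery rate share of the span, 3.50%, was 5.073% with the smaller lists, 7.3% and 1.574% at 6 and 25 kb, 3.028% over 5 kb from starts, 3.233% for any gene type, 3.767% and 2.903% with 150 and 600 members, 15.74% ranked per kb and 5.799% at a limit of 0.05. With tRNA gene peaks left out, chosen after seeing the data, AP-1 was 9.867% and this share 3.296%. The causes were not tested. The difference between animals kept its sign in all 13 alternatives, from -0.137 to -0.0622. A tRNA gene peak lay in 18 of 150 and 34 of 600 members, against 27 of 300, so its share fell as more members were taken, and in 18 to 30 of 300 under the other alternatives. No paired analysis was possible because there is 1 group. The depth is unknown, heights carry no counting error, and 2 animals limit every spread.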
